A study of Homo sapiens with 16 samples.

Results

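The mitochondrial ribosomal protein genes were followed through 16 RNA-seq libraries of human multiple myeloma cells. Members were the rows of the count table whose symbol begins with MRPL or MRPS followed by a digit, without symbols that end in P and digits. The prefix matched 82 of 23354 rows, of which 3 pseudogenes (MRPL42P5, MRPL45P2 and MRPS31P5) were left out and 79 were kept. One of the 79 is an antisense transcript, MRPL23-AS1, so 78 were protein-coding genes, 49 MRPL and 29 MRPS. The filter on low counts left 76 members among the 14215 genes tested.

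MM1S and MM1R are a pair of human myeloma cell lines from the same parental line, labelled glucocorticoid sensitive and resistant. Treatment lasted 48 h and was vehicle (Veh), TAK-981 (TAK, 0.1 μM), dexamethasone (Dex, 1 μM) or the pair of agents at these doses (combo), and each of the 8 groups had 2 libraries of ribosome-depleted total RNA. TAK-981 inhibits the SUMO E1 enzyme, which starts the attachment of the small protein SUMO to other proteins, and Dex is a synthetic glucocorticoid. The question was how SUMOylation inhibition changes expression with and without Dex. The labels name no engineered change in either line, and since both lines come from the same tumour, a difference between them is between these lines only. The labels say that treatments were in duplicate but not that the duplicates were separate cultures, so p-values measure only the spread between these libraries, which may be technical.

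Mitochondria have their own ribosome, which translates the few proteins encoded by mitochondrial DNA, all of them subunits of the oxidative phosphorylation complexes. Its RNA comes from mitochondrial DNA, but every one of its proteins is encoded in the nucleus, made in the cytosol and imported. Large subunit proteins are named MRPL and small subunit proteins MRPS, although the MRPS30 and MRPS18A proteins sit in the large subunit and MRPS36 is now placed in the ketoglutarate dehydrogenase complex. Some members descend from bacterial ribosomal proteins and others exist only in mitochondria.

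Libraries held 15707587 to 24796539 counts. Members took 0.262% to 0.363% of them. Levels are given as CPM, counts scaled to a common library size with TMM factors. A change is a log2 fold change with its standard error (SE), called at an adjusted p under 0.05. Members with the largest changes were named only if called and if the libraries of the compared groups did not overlap. For those members non-overlap follows from the choice and adds no support. All 8 plasma cell markers were detected and summed to 4295 to 9996 CPM in a library. The 9 markers of other cells summed to 2.79 to 18.8 CPM, with 4 of them at or under 3 counts in every library. Single plasma cell markers ran from 6.74 to 4763 CPM and single markers of other cells from 0 to 12.4 CPM, so single values overlapped. The glucocorticoid receptor gene NR3C1 averaged 280 ± 4.35 CPM in MM1S vehicle and 18.9 ± 1.41 CPM in MM1R vehicle (SD, n = 2). The pairs of MM1S TAK and MM1S Dex libraries differed most from each other, at chi-square values of 21.7 and 19.5 per degree of freedom over genes, against 2.11 to 9.32 in the other 6 pairs. In bulk samples fewer cells of a type and less RNA per cell cannot be told apart.

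Members were expressed at very unequal levels. Per kilobase of exon in vehicle libraries of both lines, tested members ranged from 0.518 to 145 CPM per kb with a median of 24.2, and 66 of 76 exceeded 10 CPM per kb. MRPL51, a large subunit protein, was highest at 145 CPM per kb, followed by the small subunit genes MRPS21 at 94.5 and MRPS34 at 91.4 CPM per kb. The lowest were MRPL46 at 4.58, MRPS28 at 2.17 and MRPL38 at 0.518 CPM per kb. MRPL53 had 0 counts in every library, which allows up to 3 counts per library, MRPS24 had at most 3 counts and MRPL23-AS1 at most 1. MRPL38, MRPS28, MRPL53, MRPS24 and MRPL12 lie inside another gene on the same strand in the table (FBF1, TPD52, CCDC142, URGCP-MRPS24 and SLC25A10), so their counts depend on how shared reads were assigned. The same holds in part for MRPS6, which shares 0.471 of its span with SLC5A3 on the same strand. MRPS16 (DNAJC9), MRPL30 (C2orf15 and LIPT1) and MRPL3 (SNORA58) also overlap genes on the same strand. MRPL2, MRPL40 and MRPS12 lie wholly within a gene on the opposite strand (KLC4, HIRA and SARS2). Members lay on 21 chromosomes, and 21 of the 78 overlapped another gene on either strand. Whether the counting used strand is not given in the sources used here.

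The summed level of all members was highest in untreated MM1R and lower with TAK-981 than with vehicle in both lines. It was 3031 and 3011 CPM in the MM1S vehicle libraries and 2802 and 2884 CPM after TAK-981. In MM1R it was 3618 and 3715 CPM in vehicle and 2981 and 3022 CPM after TAK-981. In each line the TAK and vehicle libraries did not overlap. After Dex the sums were 2925 and 3219 CPM in MM1S and 3420 and 3681 CPM in MM1R, overlapping the vehicle values in each line. The combo libraries held 2609 and 2566 CPM in MM1S, the lowest of all groups, and 3053 and 3048 CPM in MM1R. With 2 libraries against 2 an exact permutation test cannot reach 0.05, so no test was made on these sums.

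**Figure D1:**
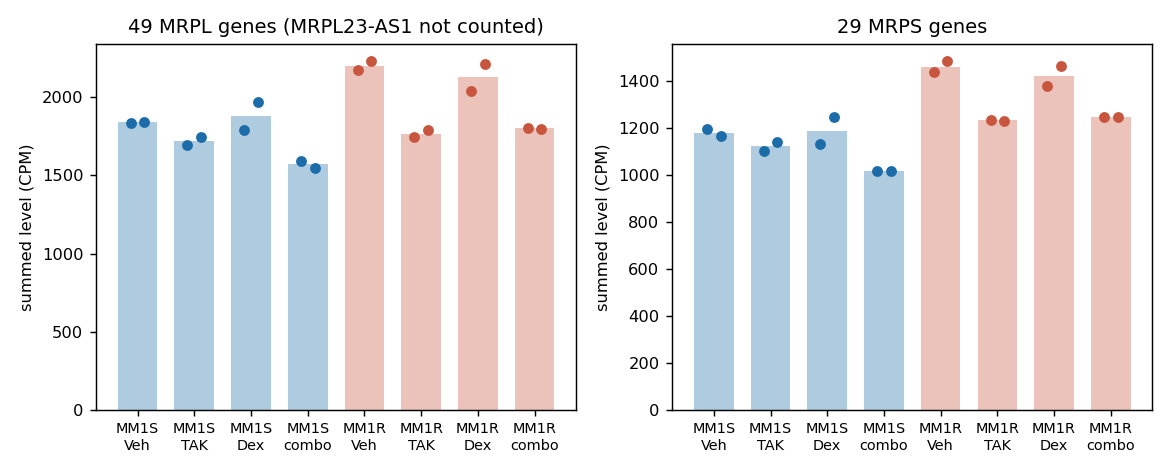
Summed level of the 49 MRPL genes (left) and the 29 MRPS genes (right) in each library, in CPM, with bars at the mean of 2 libraries and a point for each library. MM1R vehicle is the highest group in both panels (means of 2203 and 1463 CPM) and MM1S combo the lowest (1571 and 1017 CPM).

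TAK-981 lowered most members in MM1R. Of 76 tested, 51 fell and 2 rose, with a median log2 fold change of -0.29, against a median of 0.00 over all 14215 genes. The share lower was 67.1% of members, where 27.6% of all genes tested were called lower, and the share higher was 2.63%, where 25.8% of all genes were called higher. The fall was moderate: the quartiles of the members were -0.42 and -0.18, and none reached a log2 change of 1 in size. Leaving out each library in turn gave 37 to 55 called members in place of 53.

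MRPL11, at the base of the stalk that recruits translation factors, had the largest fall. Its level was 45.0 and 48.3 CPM in MM1R vehicle and 26.9 and 26.1 CPM after TAK-981, a log2 change of -0.82 (SE 0.10, adjusted p = 3.29e-06). MRPL37, a mitochondria-specific large subunit protein, went from 140 and 144 CPM to 85.3 and 87.2 CPM, a change of -0.72 (SE 0.08, adjusted p = 8.15e-07). In both genes the vehicle and treated libraries were far apart. In hg19, the build of the count table, MRPL11 lies on the minus strand of chromosome 11 from 66202550 to 66206310 and MRPL37 on the plus strand of chromosome 1 from 54665840 to 54684056, and neither overlaps another gene. MRPL23, at the exit of the tunnel through which new proteins leave, went from 24.7 and 27.5 CPM to 15.4 and 16.9 CPM, a change of -0.69 (SE 0.10, adjusted p = 1.03e-05). MRPS34, a mitochondria-specific small subunit protein, went from 104 and 108 CPM to 65.2 and 67.6 CPM, a change of -0.68 (SE 0.13, adjusted p = 0.000507). MRPL51, the member with the highest level per kb, had 108 and 113 CPM in vehicle and 70.9 and 74.3 CPM after TAK-981, a change of -0.60 (SE 0.11, adjusted p = 0.000309). For none of these 3 did the libraries overlap, which the rule for naming required of MRPL23 and MRPS34.

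Only MRPS2 and MRPL14 rose in MM1R. MRPS2, a small subunit protein with a bacterial counterpart, had the largest change of any member in either direction. It went from 47.5 and 49.8 CPM to 86.9 and 89.7 CPM, a log2 change of 0.86 (SE 0.07, adjusted p = 8.74e-09). MRPL14, a large subunit protein at the interface between the subunits, went from 44.6 and 44.4 CPM to 51.5 and 51.4 CPM, a change of 0.21 (SE 0.08, adjusted p = 0.0444). This small rise in MRPL14 was not called in 10 of 22 alternatives, among them no filter on low counts, DESeq2 and leaving out any 1 of the MM1R vehicle or TAK libraries, where adjusted p ran up to 0.143. MRPS2 lies on the plus strand of chromosome 9 from 138392477 to 138396519. MRPL14 lies on the minus strand of chromosome 6 from 44081373 to 44095191. The start of a gene on the opposite strand is 113 bases (C9orf116) and 185 bases (TMEM63B) away. Such a start within 1000 bases was found for 19 members and is not particular to the risers. Of the fallers named above, MRPL37 (CYB5RL, 94 bases), MRPS34 (EME2, 89 bases) and MRPL51 (NCAPD2, 827 bases) had one, and MRPL11 and MRPL23 had none. MRPS30, MRPL52 and MRPL32 stayed nearest to 0 by the size of change averaged over both lines. In MM1R they were at 0.01 (SE 0.07), 0.00 (SE 0.12) and -0.03 (SE 0.11).

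In MM1S most members were not called after TAK-981. Of 76 tested, 18 fell (23.7%) and 5 rose (6.58%), with a median of -0.09 against 0.04 over all genes. Over all genes tested 23.7% were called lower and 25.2% higher, so the share of members lower equalled the background. Without MM1S vehicle replicate 1 the count of 23 called members became 15, and a fit of only the vehicle and TAK libraries also gave 15. Scaling by library size alone gave 30.

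MRPL39, a mitochondria-specific large subunit protein, had the largest fall in MM1S. It went from 22.0 and 18.3 CPM to 13.1 and 14.2 CPM, a log2 change of -0.56 (SE 0.11, adjusted p = 0.000384). MRPL11 went from 39.3 and 40.3 CPM to 26.1 and 28.0 CPM, a change of -0.56 (SE 0.11, adjusted p = 0.000256). MRPL37 went from 102 and 106 CPM to 68.0 and 79.5 CPM, a change of -0.49 (SE 0.08, adjusted p = 8.62e-05). For these 3 members both treated libraries were below both vehicle libraries, as the rule for naming them required. MRPS6, a small subunit protein with a bacterial counterpart, went from 34.6 and 32.2 CPM to 24.5 and 23.2 CPM, a change of -0.49 (SE 0.07, adjusted p = 2.27e-05).

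The 5 risers in MM1S were MRPS2, MRPL14, MRPL49, MRPL41 and MRPS17. MRPS2 went from 38.7 and 38.4 CPM to 53.3 and 57.9 CPM, a log2 change of 0.53 (SE 0.07, adjusted p = 6.73e-06). MRPL14 went from 32.7 and 32.1 CPM to 43.2 and 48.2 CPM, a change of 0.50 (SE 0.09, adjusted p = 0.000126). These were the 2 members that rose in both lines. MRPL49 went from 49.9 and 51.6 CPM to 63.7 and 65.4 CPM, a change of 0.35 (SE 0.07, adjusted p = 0.000615). MRPL41 had 30.1 and 32.9 CPM in vehicle and 33.7 and 44.6 CPM after TAK-981, a change of 0.32 (SE 0.11, adjusted p = 0.0275). The MRPL41 libraries came close to each other, and without MM1S TAK replicate 2 its change was 0.10 and not called (adjusted p = 0.475), nor was it called without MM1S vehicle replicate 1 or in the fit of only the groups compared.

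**Figure D2:**
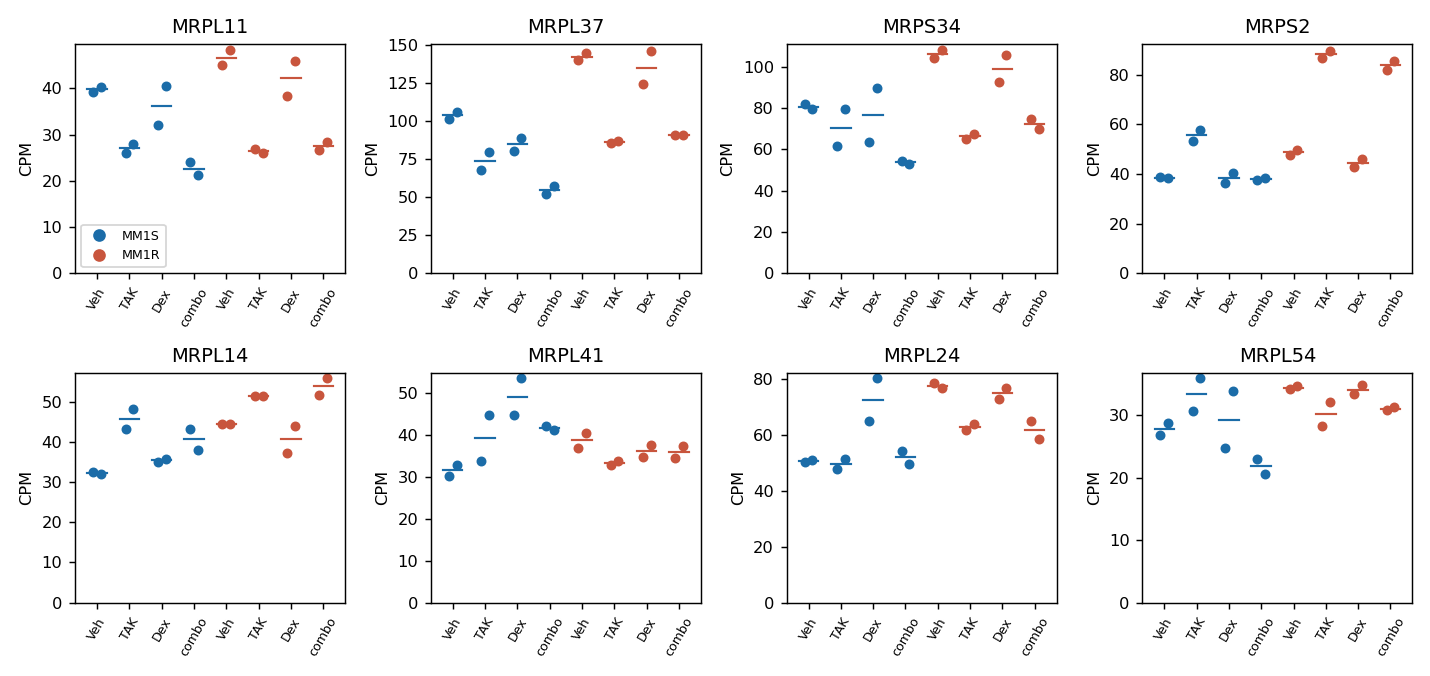
Level in CPM of 8 members in each of the 16 libraries, with a point for each library and a line at the mean of 2. MRPL11 and MRPL37 are lower with TAK and combo than with vehicle in both lines, MRPS2 is higher with TAK in both lines but with combo only in MM1R, and MRPL41 and MRPL24 are higher with Dex in MM1S.

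Calls in the lines overlapped among members and among all genes. The MM1S and MM1R comparisons have no library in common. Of the 18 lower in MM1S, 17 (94.4%) were also lower in MM1R, where they were 33.3% of 51, and MRPL40 was the exception. Over all genes 79.7% of those lower in MM1S were also lower in MM1R, where they were 68.5%, so most genes lower in MM1S were lower in MM1R whether members or not. Over the 76 members the changes in both lines had Pearson's r = 0.748 and Spearman's rho = 0.702, given as a description since members share each library's depth and scaling. Over all genes r was 0.75. The change was of the same sign in 56 members (73.7%) and in 79.99% of all genes, and was more negative in MM1R in 69 members (90.8%) and in 50.5% of all genes.

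**Figure D3:**
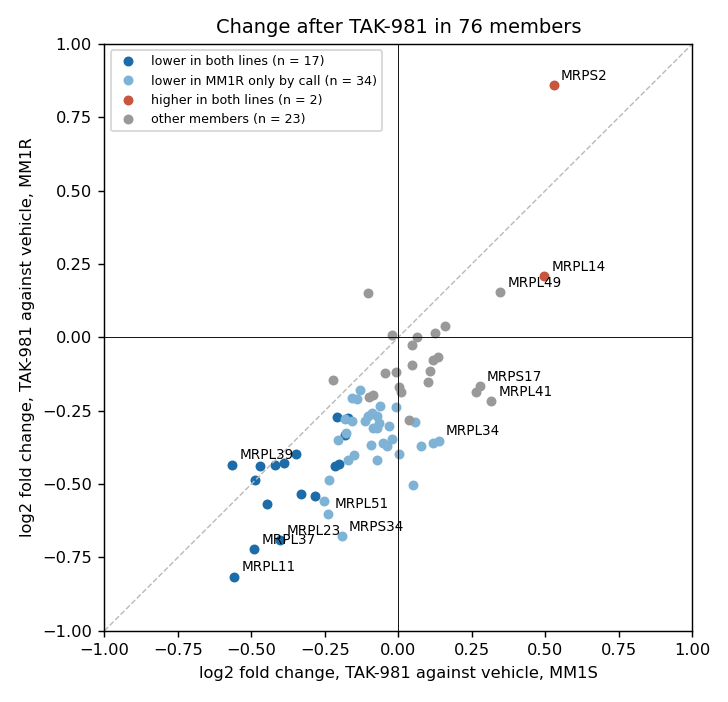
Log2 fold change after TAK-981 in MM1S (x axis) and MM1R (y axis) for 76 members, coloured by their calls, with the dashed line where both are equal. Most points, 69 of 76, lie below the dashed line, and MRPS2 and MRPL14 are the 2 members called higher in both lines.

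The test of the difference between lines called 1 member. MRPL34, a small protein of the large subunit with a bacterial counterpart, had 50.5 and 51.3 CPM in MM1S vehicle and 57.6 and 54.3 CPM after TAK-981. In MM1R it had 59.0 and 60.2 CPM in vehicle and 45.6 and 47.8 CPM after TAK-981. MRPL34 fell in MM1R (-0.35, SE 0.07, adjusted p = 0.00065), while its change in MM1S was 0.14 and not called (SE 0.07, adjusted p = 0.138). The difference was -0.49 (SE 0.11, adjusted p = 0.0119). This call was lost without MM1S vehicle replicate 1, MM1R vehicle replicate 2 or MM1R TAK replicate 1. Over all genes the interaction called 3.19% higher and 0.978% lower, and among members 0 of 76 higher and 1 of 76 lower, with a median of -0.20 against -0.0034 over all genes. The count was 2 with scaling by library size, 10 without the filter, and 0 to 14 when 1 library was left out, highest at 14 without MM1S TAK replicate 1.

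Members of every structural class fell in MM1R, where 27.6% of all genes tested were called lower and 25.8% higher. In MM1R, 26 of 30 tested large subunit members with a bacterial counterpart fell and 1 rose, with a median log2 change of -0.33. Of 19 mitochondria-specific large subunit members 8 fell and 0 rose (median -0.22), of 15 small subunit members with a bacterial counterpart 9 fell and 1 rose (median -0.27), and of 9 mitochondria-specific small subunit members 8 fell (median -0.35). The 6 members at the tunnel exit and membrane anchor (MRPL17, MRPL22, MRPL23, MRPL24, MRPL45 and MRPL47) were all called lower, and MRPL45 by 0.23 on the log2 scale (SE 0.08, adjusted p = 0.0203), the least of these. The MRPL45 call was lost without either MM1R vehicle library or MM1R TAK replicate 1, with adjusted p up to 0.179, and that of MRPL24 without MM1R TAK replicate 1. Of the 3 stalk members, MRPL11 and MRPL12 fell and MRPL10 was at -0.07 (SE 0.08, adjusted p = 0.485). MRPL12 was called at -0.42 (SE 0.15, adjusted p = 0.025) but not without MM1R vehicle replicate 2, MM1R TAK replicate 1 or MM1R TAK replicate 2. Of the 8 members of the central protuberance 5 fell. Among the 3 forms of the same bacterial protein, MRPS18C fell by 0.42 on the log2 scale (SE 0.11, adjusted p = 0.00469), while MRPS18A was at 0.04 (SE 0.07) and MRPS18B at -0.08 (SE 0.08).

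**Figure D4:**
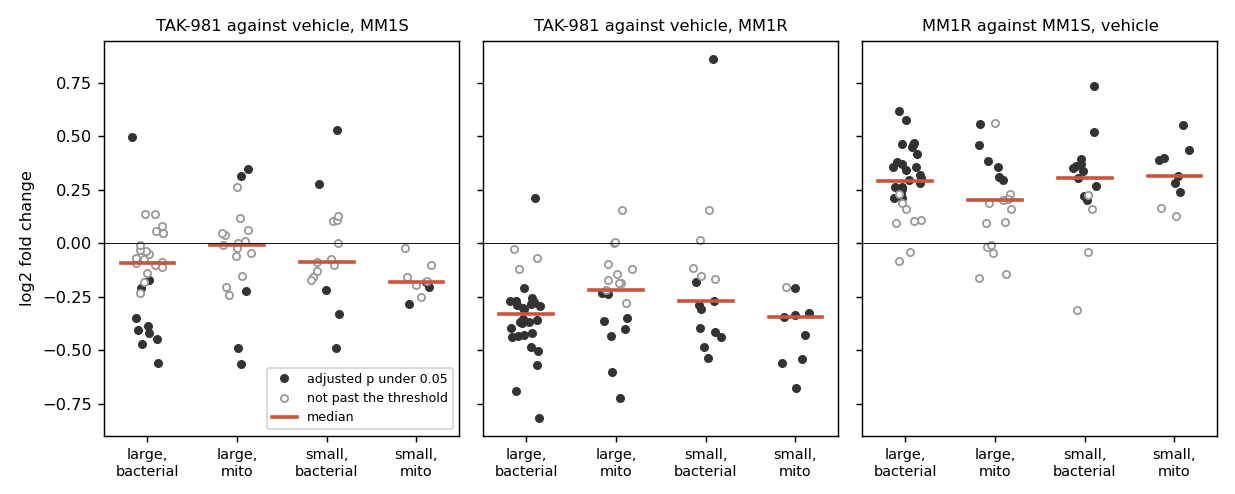
Log2 fold change of members in 4 structural classes (large or small subunit, with a bacterial counterpart or specific to mitochondria) after TAK-981 in MM1S and MM1R and between the untreated lines, with filled points for called members and a bar at the class median. All 4 medians are below 0 after TAK-981 in MM1R (-0.35 to -0.22) and above 0 between the lines (0.20 to 0.31).

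Nuclear genes of oxidative phosphorylation, whose complexes hold the proteins that the mitochondrial ribosome makes, had counts close to those of the members after TAK-981. Of 76 tested, 51 were lower in MM1R with a median of -0.33, and in MM1S 17 were lower with a median of -0.10. Over all genes tested 27.6% were called lower in MM1R and 23.7% in MM1S. The oxidative phosphorylation share lower in MM1S was thus close to that of all genes. Of 77 tested cytosolic ribosomal protein genes, 30 (39.0%) were lower in MM1R and 5 (6.49%) in MM1S, with medians of -0.18 and 0.01. Whether these lists differ from the members was not tested.

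Other genes of mitochondrial translation were counted from lists of known function. Over all genes tested, 27.6% were called lower and 25.8% higher after TAK-981 in MM1R. In MM1S these shares were 23.7% and 25.2%. A list whose share is near or below these did not stand apart from all genes. Of 5 ribosomal proteins with other names (DAP3, PTCD3, CHCHD1, AURKAIP1 and GADD45GIP1), 3 fell in MM1R and 1 in MM1S, and none rose. AURKAIP1 changed by -0.52 (SE 0.11, adjusted p = 0.00053) in MM1R and -0.06 (SE 0.11) in MM1S. Of 25 assembly factors 9 fell and 0 rose in MM1R, and 4 fell and 2 rose in MM1S, where their share lower was below that of all genes. The assembly factor MTERF3 fell in both lines, by 0.62 in MM1S (SE 0.13, adjusted p = 0.0007) and by 0.63 in MM1R (SE 0.12, adjusted p = 0.000178) on the log2 scale. MPV17L2, a membrane protein of large subunit assembly, changed by -0.71 (SE 0.14) in MM1R and 0.07 (SE 0.15) in MM1S, and its difference between the lines was called (-0.77, SE 0.21, adjusted p = 0.0419).

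Of 16 translation factors and RNA-binding partners, 9 fell and 1 rose in MM1R, and 4 fell and 1 rose in MM1S. Over all genes 27.6% were lower in MM1R and 23.7% in MM1S, the latter close to the share of these factors. LRPPRC and SLIRP, which together stabilise mitochondrial mRNAs, fell by 0.51 and 0.60 in MM1R and by 0.38 and 0.50 in MM1S on the log2 scale, all of them called. Of 20 mitochondrial tRNA synthetases and related enzymes 10 fell and 1 rose in MM1R, and 8 fell in MM1S. The riser, FARS2, changed by 0.36 (SE 0.10, adjusted p = 0.00423). Of 9 genes of mitochondrial DNA transcription and replication 5 fell and 1 rose in MM1R. TFAM, which packages and transcribes mitochondrial DNA, fell by 0.44 in MM1R (SE 0.07, adjusted p = 3.27e-05) and by 0.39 in MM1S (SE 0.07, adjusted p = 0.000118). Genes encoded by mitochondrial DNA itself were not analysed here.

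Among 13 mitochondrial proteases, chaperones and stress genes 9 fell and 1 rose in MM1R, and 7 fell and 3 rose in MM1S. Over all genes 27.6% fell and 25.8% rose in MM1R, and 23.7% fell and 25.2% rose in MM1S. The chaperone HSPD1 fell by 0.75 on the log2 scale in MM1R (SE 0.07, adjusted p = 3.22e-08) and by 0.67 in MM1S (SE 0.07, adjusted p = 1.13e-07), and HSPA9 by 0.63 and 0.57. DDIT3, a stress transcription factor, rose by 0.50 in MM1R and 0.52 in MM1S. Of 10 nuclear regulators 4 fell and 2 rose in MM1R, and 3 fell and 3 rose in MM1S. MYC fell by 0.56 in MM1R (SE 0.06, adjusted p = 5.38e-07) and by 0.68 in MM1S (SE 0.06, adjusted p = 4.45e-08). The coactivators of mitochondrial genes went in opposite directions, with PPARGC1B at -0.52 (SE 0.06) and -0.49 (SE 0.06) and PPARGC1A at 0.69 (SE 0.11) and 0.55 (SE 0.10) in MM1R and MM1S, all called. What part any of these genes had in the members' changes was not tested.

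Some short motifs, which the rule did not use, were more frequent in promoters of the members than in all promoters. RefSeq promoters of GRCh38.p14, from 250 bases before to 50 bases after the start, matched 69 of 78 members. Motifs were searched on both strands as exact letters. The ETS core CCGGAAG, bound by GABPA among others, was in 42.03% of member promoters and 10.7% of all 27305, and the YY1 core AAGATGGC was in 28.99% and 3.03%. One or the other was in 41 of 69 member promoters (59.4%) and in 13.1% of all. Of the 39 ETS matches 30 lay wholly before the start, and of the 21 YY1 matches 6 did. The NRF1 core GCATGCGC was in 8.70% of members and 3.27% of all, and the E-box CACGTG, bound by MYC with its partner MAX, was in 8.70% and 7.43%. Median GC content was 60.3% in members and 58.3% in all promoters. The 27305 promoters include genes that were not tested here, and no other gene list was searched.

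**Figure D5:**
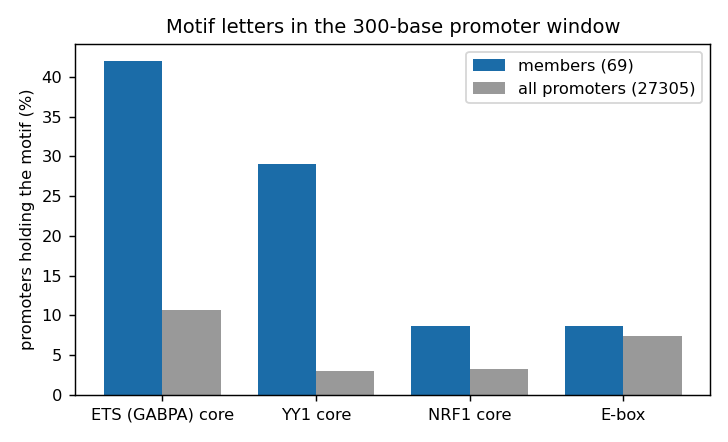
Share of promoters that hold each motif, in percent, among 69 members and all 27305 promoters of the table. The ETS and YY1 cores are in 42.03% and 28.99% of member promoters against 10.7% and 3.03% of all, while the E-box is in 8.70% against 7.43%.

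Within the members, the ETS core was in 20 of 45 promoters of members lower after TAK-981 in MM1R (44.4%) and in 8 of 22 of those not lower (36.4%). The YY1 core was in 12 of 45 (26.7%) and 7 of 22 (31.8%), and the E-box in 5 of 45 (11.1%) and 1 of 22 (4.55%). Among the members lower in both lines the ETS core was in 3 of 14 (21.4%), and the YY1 core, the NRF1 core and the E-box were in 1 of 14 each (7.14%). These are descriptions without a test. The 80 bases just before the start are shown, in the direction of the gene, for the members with the largest fall and rise in MM1R and for the 3 members with the largest fall there whose stretch holds the ETS core, chosen after their values were seen, with the ETS core in capitals. MRPL11 lies at chr11:66438849-66438928 on the minus strand and MRPS2 at chr9:135500602-135500681 on the plus strand, and neither stretch holds any of the 4 motifs. MRPS34 lies at chr16:1773135-1773214 on the minus strand, MRPS26 at chr20:3045972-3046051 on the plus strand and MRPS23 at chr17:57850045-57850124 on the minus strand. The MRPS34 stretch holds 3 ETS matches and those of MRPS26 and MRPS23 hold 1 each.
MRPL11: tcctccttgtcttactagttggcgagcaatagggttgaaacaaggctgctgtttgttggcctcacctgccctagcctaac
MRPS34: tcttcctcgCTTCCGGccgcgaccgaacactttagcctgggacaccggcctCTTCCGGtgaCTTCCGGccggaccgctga
MRPS26: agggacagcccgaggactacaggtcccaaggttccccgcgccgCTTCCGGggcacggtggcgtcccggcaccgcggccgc
MRPS23: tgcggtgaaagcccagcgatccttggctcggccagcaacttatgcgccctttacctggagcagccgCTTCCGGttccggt
MRPS2: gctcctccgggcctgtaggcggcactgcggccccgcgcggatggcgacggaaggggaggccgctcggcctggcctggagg

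Dex changed members of MM1S in both directions. Of 76 tested 8 rose (10.5%) and 7 fell (9.21%), below the 20.8% and 21.5% of all genes, with a median of 0.04 against 0.01 over all genes. Without MM1S vehicle replicate 1 the count of 15 became 7, without MM1S vehicle replicate 2 it became 8, and the median without MM1S Dex replicate 2 was -0.01. For comparison, 22 of 76 oxidative phosphorylation genes were lower after Dex in MM1S and 1 was higher.

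MRPL41, a mitochondria-specific large subunit protein, rose most after Dex. It went from 30.1 and 32.9 CPM to 44.6 and 53.5 CPM, a log2 change of 0.64 (SE 0.11, adjusted p = 0.000148). MRPL24, at the tunnel exit, went from 50.2 and 51.0 CPM to 64.9 and 80.5 CPM, a change of 0.52 (SE 0.09, adjusted p = 8.49e-05). MRPL57 went from 20.0 and 19.4 CPM to 27.0 and 28.7 CPM, a change of 0.50 (SE 0.09, adjusted p = 0.000263). In all 3 both Dex libraries exceeded both vehicle libraries, as the rule for naming them required. MRPS26, of the small subunit, had 22.0 and 23.6 CPM in vehicle and 25.8 and 33.0 CPM after Dex (0.37, SE 0.11, adjusted p = 0.0134), a call lost without MM1S vehicle replicate 1 or MM1S Dex replicate 2.

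MRPS6 fell most after Dex in MM1S. It went from 34.6 and 32.2 CPM to 25.4 and 25.1 CPM, a log2 change of -0.41 (SE 0.07, adjusted p = 0.00019). MRPS15, a small subunit protein with a bacterial counterpart, went from 52.6 and 54.3 CPM to 42.2 and 44.5 CPM, a change of -0.30 (SE 0.07, adjusted p = 0.00111). Neither gene's groups overlapped, as the rule for naming them required. MRPS6 overlaps SLC5A3, as given above. MRPL1 and MRPL37 were called at -0.29 each (SE 0.09 and 0.08), calls lost without MM1S vehicle replicate 2 for both, without MM1S vehicle replicate 1 or MM1S Dex replicate 2 for MRPL1 and without MM1S Dex replicate 1 for MRPL37.

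In MM1R no member and no gene changed with Dex by edgeR. Of 76 members 0 rose and 0 fell, against 0% and 0% of all 14215 genes, and DESeq2 called 0 genes. An unadjusted p under 0.05 was reached by 0 members and by 395 of all genes. The median member was at -0.05. The difference in Dex response between the lines was called for 2 members higher and 4 lower in MM1R than in MM1S, where 15% and 13.1% of all genes were called. MRPL41 differed by -0.74 (SE 0.16, adjusted p = 0.00166), with 36.8 and 40.4 CPM in MM1R vehicle and 34.7 and 37.6 CPM after Dex. MRPL24 differed by -0.57 (SE 0.12, adjusted p = 0.00145), MRPL57 by -0.54 (SE 0.13, adjusted p = 0.00455) and MRPL15 by -0.35 (SE 0.10, adjusted p = 0.0146). In the other direction MRPS6 differed by 0.38 (SE 0.10, adjusted p = 0.00789) and MRPS15 by 0.27 (SE 0.09, adjusted p = 0.0319). The count of 6 became 10 without either MM1S TAK library or MM1S Dex replicate 1.

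The combination lowered members in both lines against vehicle. In MM1S 32 of 76 fell (42.1%) and 6 rose (7.89%), where 29.5% of all genes fell and 30.8% rose, with a median of -0.19. In MM1R 47 fell (61.8%) and 3 rose (3.95%), where 26.7% of all genes fell and 24.8% rose, with a median of -0.29. MRPL37 had 52.3 and 57.6 CPM in the MM1S combo libraries, the largest fall of any member there (-0.91, SE 0.09, adjusted p = 3.35e-08), and MRPL11 had 24.0 and 21.3 CPM (-0.82, SE 0.11, adjusted p = 3.48e-06).

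TAK-981 was also compared with its absence among Dex-treated cells, where all 4 libraries of a line differ from those of the comparison with vehicle. In MM1S 35 of 76 members were lower in combo than in Dex (46.1%) and 0 higher, where 25.4% of all genes were lower and 22.2% higher. In MM1R 39 were lower (51.3%) and 3 higher (MRPS2, MRPL14 and MRPL49), where 25.3% of all genes were lower and 23.1% higher. The count of 35 became 22 without MM1S Dex replicate 2, and that of 42 in MM1R became 25 without MM1R Dex replicate 2 and 26 without MM1R combo replicate 2. In MM1R 36 members were lower in both settings, 70.6% of the 51 lower without Dex and 92.3% of the 39 lower with it, where these shares were 82.3% and 89.9% over all genes. In MM1S 13 were lower in both, 72.2% of 18 and 37.1% of 35, against 68.0% and 63.6% over all genes.

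Adding Dex to TAK-981 changed members in MM1S, at a share lower close to that of all genes, with no call in MM1R. In MM1R 0 of 76 were called, where 0% of all genes were higher and 0% lower, 2 members had an unadjusted p under 0.05, and DESeq2 also called 0 members. In MM1S 18 fell (23.7%) and 2 rose (2.63%), where 20.6% of all genes fell and 14.5% rose, with a median of -0.09. A fit of only the TAK and combo libraries gave 10 calls in place of 20, and leaving out MM1S combo replicate 2 gave 13.

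MRPL54, a mitochondria-specific large subunit protein, had 30.7 and 35.9 CPM with TAK-981 and 23.0 and 20.6 CPM with the combination, a log2 change of -0.61 (SE 0.12, adjusted p = 0.000703). MRPL33, with a bacterial counterpart, went from 29.1 and 27.3 CPM to 19.9 and 18.1 CPM, a change of -0.57 (SE 0.11, adjusted p = 0.00049). MRPL48 went from 30.2 and 29.5 CPM to 21.9 and 20.8 CPM, a change of -0.48 (SE 0.08, adjusted p = 8.8e-05). For these 3 members both combo libraries lay below both TAK libraries, as the rule for naming them required. MRPS2, chosen by the same rule and described below, was also called lower, with a log2 change of -0.545. MRPS28 rose by 1.31 (SE 0.26, adjusted p = 0.000669), from 1.19 and 1.96 CPM to 4.77 and 3.13 CPM, on only 23 to 77 counts per library and within TPD52, as given above. MRPL57 rose by 0.36 (SE 0.10, adjusted p = 0.00639), a call lost without MM1S TAK replicate 2.

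The response of MRPS2 to TAK-981 in MM1S depended on Dex. It had 36.5 and 40.2 CPM with Dex and 37.7 and 38.5 CPM with the combination, a log2 change of -0.01 (SE 0.07, adjusted p = 0.917), against the rise without Dex given above. The interaction was -0.54 (SE 0.10, adjusted p = 0.00191) and held under each alternative other than the threshold on fold change. In MM1R the rise of MRPS2 was present with Dex too, from 43.0 and 46.2 CPM to 81.8 and 85.7 CPM, a change of 0.91 (SE 0.07, adjusted p = 5.4e-09). Whether the MM1S and MM1R interactions of MRPS2 differ was not tested.

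In all, 7 of 76 members had a TAK-981 by Dex interaction below 0 in MM1S and 0 above. Over all genes 9.48% were below and 5.47% above, so the share of members below was close to that of all genes. The median was -0.15 against -0.03 over all genes. The 7 members were MRPL54, MRPS12, MRPL41, MRPS2, MRPL15, MRPL24 and MRPS33. MRPL54 was at -0.69 (SE 0.17, adjusted p = 0.0113) and MRPS12, near the decoding centre, at -0.60 (SE 0.18, adjusted p = 0.0295). Both were lost without MM1S vehicle replicate 1, without MM1S Dex replicate 2 and in the fit of only the groups compared. Of 22 alternatives, 4 ended the call of MRPL54 and 6 that of MRPS12. The MRPL41 call was lost in 6, MRPL24 in 5 and MRPL15 in 1, while MRPS2 held as given above. The count of 7 became 2 without MM1S vehicle replicate 1 or MM1S Dex replicate 2, 4 without either MM1S combo library, 18 without MM1S TAK replicate 1 or MM1S Dex replicate 1, and 1 in a fit of the MM1S libraries alone. In MM1R the interaction called 0 of 76 members, where 0% of all genes were above and 0% below, with 0 members at an unadjusted p under 0.05 and 0 by DESeq2.

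Untreated MM1R expressed most members above untreated MM1S. Of 76 tested 48 were higher (63.2%) and 0 lower, where 25.6% of all genes were higher and 22.6% lower, with a median of 0.28 against 0.01 over all genes. The count became 28 without MM1R vehicle replicate 2, all higher. It was 36 with scaling by library size, of which 35 were higher. Of 76 oxidative phosphorylation genes 43 were higher and 3 lower, while of 77 cytosolic ribosomal protein genes 4 were higher and 19 lower, with medians of 0.25 and -0.12.

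MRPS21, a small subunit protein with a bacterial counterpart, differed most. It had 67.8 and 65.004 CPM in MM1S and 112 and 109 CPM in MM1R, a log2 difference of 0.74 (SE 0.07, adjusted p = 7.55e-08). MRPL24 had 50.2 and 51.0 CPM in MM1S and 78.5 and 76.8 CPM in MM1R, a difference of 0.62 (SE 0.09, adjusted p = 1.28e-05). MRPL55 had 18.3 and 20.0 CPM against 28.9 and 28.0 CPM (0.57, SE 0.14, adjusted p = 0.0022). MRPL58, a peptidyl-tRNA hydrolase built into the large subunit, had 16.5 and 16.7 CPM against 24.2 and 24.7 CPM (0.56, SE 0.10, adjusted p = 0.000262). For all 4 both MM1R libraries lay above both MM1S libraries, as the rule for naming them required. MRPL11, the member with the largest fall after TAK-981 in MM1R, was at 0.23 (SE 0.10, adjusted p = 0.0688) between the lines. The TAK-981 comparisons and the line comparison share the vehicle libraries, so a high vehicle value enters both.

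Members that overlap no other gene were counted apart. Of these 57, 38 fell and 2 rose after TAK-981 in MM1R with a median of -0.28. Over all genes tested 27.6% fell and 25.8% rose there. In MM1S 13 fell and 4 rose with a median of -0.09, where 23.7% of all genes fell and 25.2% rose. The share lower in MM1S was thus close to that of all genes. In untreated MM1R 37 of the 57 were higher with a median of 0.27, where 25.6% of all genes were higher.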

How the data were processed

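The authors deposited a table of raw counts, one whole-number count per gene and library, with gene lengths and hg19 positions. Per the submitters' processing notes, bcl2fastq 2.18.0.12, STAR 2.6.0, HTSeq 0.6.0 and edgeR 3.28.1 were used. Read counts were taken as deposited, with no column left out, and libraries were matched to groups by their titles. Genes passing edgeR's filterByExpr (edgeR 4.0.16 in R 4.3.3) were scaled with TMM and fitted with 1 term per group over all 16 libraries by the robust quasi-likelihood fit with 8 residual degrees of freedom. Its F test was applied to 15 contrasts. The Benjamini-Hochberg adjustment ran over all 14215 genes tested, with a threshold of 0.05. Intervals, SE and p cover these libraries only.

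Gene lists were written from general knowledge. The members and lists were chosen with earlier results of these data known. Members named in the text were the 4 highest and 4 lowest called and non-overlapping members of the TAK-981, Dex, combo against TAK and line comparisons, the 4 smallest adjusted p of 2 interactions, the 3 highest and 3 lowest per kb, the 3 nearest to 0 after TAK-981 and members of known role. From each list of other genes up to 2 lower and 2 higher with the smallest adjusted p for TAK-981 in MM1R were eligible. Others (MRPS17, MRPL40, MRPS33, MRPS23 and those listed by count) were named after their values were seen. Overlaps left out table rows spanning over 3 Mb, which merge copies. The fit was tested on simulated data. Alternatives were RLE, library size only, no filter, a replicate block, DESeq2 1.42.0, a fit restricted to the compared groups, a further requirement of a log2 change of 1 or more in size, and dropping single libraries.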

Additional observations from a re-analysis of the deposited data

Results flagged for a closer look

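In 7 members the response to a drug differed between the lines by an interaction test in edgeR's quasi-likelihood fit, given as the change in MM1R minus that in MM1S on the log2 scale. For TAK-981 this was MRPL34 at -0.49, which fell in MM1R and was not called in MM1S. For Dex these were MRPL41 at -0.74, MRPL24 at -0.57, MRPL57 at -0.54, MRPL15 at -0.35, MRPS6 at 0.38 and MRPS15 at 0.27. Among all genes tested the TAK-981 interaction called 3.19% higher and 0.978% lower. The Dex interaction called 15% of all genes higher and 13.1% lower, in each direction a larger share than among the members. The calls of MRPL41, MRPL24, MRPL57 and MRPS6 held in all 22 alternatives other than the threshold on fold change. The call of MRPL34 was lost in 3 of these alternatives, that of MRPL15 in 3 and that of MRPS15 in 8. With 2 libraries per group no sample could be tested for standing apart from its group.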

How the results depend on the processing

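The counts of called members were within 1.5 times the reported count under RLE and DESeq2 in each comparison. Scaling by library size moved the line by TAK-981 interaction from 1 to 2, and leaving out the filter moved it to 10. A fit of only the groups compared gave 15 for TAK-981 in MM1S, 10 for combo against TAK-981 in MM1S and 1 for the TAK-981 by Dex interaction in MM1S. Requiring a log2 change of 1 or more in size left 0 members in every comparison except combo against vehicle and combo against TAK-981 in MM1S, with 1 each. With the replicate block the counts moved to 24 for Dex in MM1S, 14 for the line by TAK-981 interaction, 15 for the line by Dex interaction and 19 for the TAK-981 by Dex interaction in MM1S. The matching shares over all genes are not given here, so these moves cannot be read as particular to the members. Deviations of same-numbered libraries correlated at -0.0134 to 0.263 over 12 pairs of groups. The highest values were 0.263 for MM1S TAK with MM1S Dex and 0.139 for MM1S TAK with MM1S combo. Whether same-numbered libraries shared a batch was not tested.

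Leaving out 1 library at a time, which assumes that the remaining library varies like the other groups, gave 15 to 28 members for TAK-981 in MM1S, 37 to 55 in MM1R, 7 to 20 for Dex in MM1S, 30 to 47 and 34 to 55 for combo against vehicle in MM1S and MM1R, 22 to 45 and 25 to 49 for combo against Dex, 13 to 24 for combo against TAK-981 in MM1S, 28 to 51 between the vehicle groups, 0 to 14 for the line by TAK-981 interaction, 4 to 10 for the line by Dex interaction and 2 to 18 for the TAK-981 by Dex interaction in MM1S. The 3 comparisons with no call kept 0. The member median for Dex in MM1S ran from -0.013 to 0.0969, turning sign without MM1S Dex replicate 2, and that for Dex in MM1R from -0.0978 to 0.0038, turning sign without MM1R Dex replicate 1. Of 111 calls of named members in 8 comparisons, 62 held in every alternative other than the fold threshold, and no called change turned direction in any. Shares over all genes are not given for the fits without 1 library, so their ranges cannot be read as particular to the members. The causes were not tested.

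Depth was at least 23 counts per library for each tested member except MRPL38, whose lowest was 13, and changes in MRPL38 and MRPS28 are the least precise.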
